A study of Mus musculus with 285 samples.

Results

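Cdkn1a, Ccng1, Mdm2, Bax, Bbc3, Aen, Eda2r, Trp53inp1, Phlda3 and Zmat3 are target genes of the transcription factor p53 that are commonly read as a sign of DNA damage. These 10 genes were chosen by name among the 19962 genes of a whole-transcriptome probe panel and were followed through the brains of irradiated and unirradiated mice. Their levels were read with GeoMx, in which probes bound to RNA on a tissue section are released by light from a chosen area and counted by sequencing. Of the 10 genes, 6 (Cdkn1a, Mdm2, Bax, Bbc3, Phlda3 and Zmat3) passed the filter on low signal and entered the tests across genes, and 4 (Ccng1, Aen, Eda2r and Trp53inp1) did not and are given by their values.

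The study asked how the brain transcriptome differs 24 h after irradiation at an ultra-high dose rate (FLASH) and at a conventional dose rate (CONV). Female C57BL/6J mice, 9 or 10 weeks old at irradiation (the sources differ), received no irradiation (CTRL), or head irradiation with electrons in 1 or 3 fractions of 10 Gy (FLASH 1x10Gy, FLASH 3x10Gy, CONV 1x10Gy and CONV 3x10Gy), with 3 mice in each of the 5 groups, called A, B and C. CONV was given at 0.09 Gy/s and FLASH as single pulses at 5600000 Gy/s. All groups share strain, sex and handling of the fixed tissue, and no genetic modification is given for any of them, so that the 3 CTRL mice are the only unirradiated reference for the 12 irradiated mice. Sections of 5 μm were stained for NeuN, GFAP and CD31, and libraries were collected from segments labelled neurons, astrocytes, vessels or the other, remaining area of CA1, CA3, the dentate gyrus (DG), the stratum oriens (SO) and the cortex. Each segment holds many cells, so that fewer responding cells and less RNA per cell cannot be told apart. The 15 mice lay on 5 slides: slides 1 and 2 held CTRL with both groups of 3 fractions, slide 4 held CTRL with both groups of 1 fraction, and slides 3 and 5 held no CTRL mouse.

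The protein p53 is held at a low level by the ubiquitin ligase MDM2, and breaks in DNA activate kinases that release it. Active p53 binds its response elements and raises genes for cell cycle arrest (Cdkn1a, which encodes the kinase inhibitor p21, and Ccng1, cyclin G). It also raises Mdm2, for feedback on p53 itself, and genes for apoptosis. These are Bax and Bbc3, which act at the mitochondrion, the nuclease Aen, the receptor Eda2r and Trp53inp1. Phlda3 encodes an inhibitor of Akt signalling, and Zmat3 an RNA-binding zinc finger protein. Mature neurons do not divide, while astrocytes and endothelial cells can re-enter the cell cycle, and Cdkn1a is a widely used marker of the p53 response to radiation in many tissues.

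Of 285 libraries, 225 met the limits on signal and were summed per mouse in each of 6 compartments: hippocampal neurons (58 of 60 libraries), cortical neurons (29 of 30), hippocampal astrocytes (30 of 60), cortical vessels (7 of 30) and the remaining areas of the hippocampus (68 of 72) and of the cortex (33 of 33). The libraries within the limits held 29126 to 12834511 counts. A mean negative probe, which matches no mouse RNA, took between 36.1% and 100.8% of the count of a mean gene probe in these libraries, a quantity called background share here. The 8 neuron markers all stood above 2 times the mean negative probe in the neuron segments of both regions. In the astrocyte segments 4 of 8 astrocyte markers did so (Gfap, Slc1a2, Gja1 and S100b), and also 2 of 8 neuron markers (Snap25 and Map2). Slc1a2 and S100b were nearly as high in hippocampal neuron segments, at 3.54 and 3.98 times the negative probe against 3.95 and 4.11 in astrocyte segments. Gfap and Gja1 were lower in those neuron segments, at 1.47 and 1.17 against 3.67 and 2.22. In the vessel segments 4 of 8 endothelial markers (Pecam1, Cldn5, Slco1c1 and Ly6c1) and also 6 of 8 neuron markers stood above 2 times the negative probe. None of the listed markers was at 0.

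Levels are given as the ratio of a gene's count to the mean negative probe count of the same libraries, so that 1 is the background. Each gene has 1 probe with its own affinity, so ratios are compared between samples and not between genes. A library was counted as detecting a gene when it was over the limit of quantification, which is set from the spread of the negative probes. Phlda3 was detected in 85.3% of the 225 libraries, Mdm2 in 45.3%, Bax in 29.8%, Cdkn1a in 14.7%, Bbc3 in 12% and Zmat3 in 8.44%. The untested genes were detected in 4.89% (Aen, 11 libraries), 2.67% (Ccng1, 6 libraries) and 0.444% (Trp53inp1, 1 library), and Eda2r was detected in none. Most values below are thus near the background, where the counts of a whole mouse carry the information that a single library does not.

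Cdkn1a lies on chromosome 17 (29090979 to 29100722, GRCm38.p6). Its upstream start site carries the fullest match to the p53 consensus among the 8 of the 10 genes that could be searched. Only windows near the start sites were searched, so that elements farther away were not seen. The RefSeq sequences of 250 bases before to 50 bases after each start were searched for the consensus p53 decamer, of which a response element holds a pair with a spacer of at most 13 bases, and which reads alike on both strands. A decamer was present in 8.36% of all 32851 promoters of the table, in at least 1 promoter of 9.55% of its 27025 genes, and in 5 of the 8 genes listed here that the table holds: Cdkn1a, Ccng1, Mdm2, Bax and Aen. Bbc3, Eda2r and Phlda3 had no decamer in these windows, and Zmat3 and Trp53inp1 were not matched to the table. The paired element was found in 24 promoters, one of them that of Cdkn1a, with decamers at -73 and -51 from the start site and 12 bases between them. The second start of Cdkn1a, 2790 bases away, had none. The stretches below are shown because Cdkn1a carries the result and Mdm2, Bax and Ccng1 are the other targets compared with it. They run 5′ to 3′ on the strand of the gene, with the decamers in capitals, and a match of letters does not show binding.
Cdkn1a, chr17:29090881-29090962, plus strand: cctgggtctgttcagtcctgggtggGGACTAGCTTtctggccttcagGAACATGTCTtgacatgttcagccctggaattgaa
Mdm2, chr10:117710910-117710969, minus strand: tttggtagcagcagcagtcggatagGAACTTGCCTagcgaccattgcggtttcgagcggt
Bax, chr7:45467065-45467124, minus strand: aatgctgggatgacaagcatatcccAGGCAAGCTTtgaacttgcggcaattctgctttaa
Ccng1, chr11:40755437-40755496, minus strand: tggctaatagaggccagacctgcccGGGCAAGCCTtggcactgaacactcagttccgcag

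Cdkn1a was higher in irradiated than in CTRL mice in all 6 compartments, and in hippocampal astrocytes and the remaining area of the cortex it was the single gene of 10020 that passed the test. The log2 fold change in edgeR's quasi-likelihood fit with slide as a term was 1.20 (SE 0.19) in hippocampal astrocytes and 0.47 (SE 0.065) in the remaining area of the cortex, with Benjamini-Hochberg adjusted p of 0.00255 and 0.0103. The Cdkn1a fold was largest in cortical vessels, at 2.45 (SE 0.66), and did not pass the test. Only 1 CTRL mouse had a library within the limits there, B on slide 2. The vessel fold thus compares it with FLASH 3x10Gy B and CONV 3x10Gy B alone. In hippocampal neurons the change was 0.33 (SE 0.12), in cortical neurons 0.39 (SE 0.17) and in the remaining area of the hippocampus 0.21 (SE 0.089), none of which passed (adjusted p from 0.89 to 1). The share of all genes called was 0.00998% in the astrocytes and in the remaining cortex, 0.02% in the vessels (Emc9 and Reep2, neither a member) and 0% in both neuron compartments and the remaining hippocampus. DESeq2 called the same counts except in vessels, where it called 0, and in the 3 compartments with 0 calls 248, 531 and 347 genes had an unadjusted p under 0.05 in edgeR (2.48% of genes in hippocampal neurons, 5.3% in cortical neurons and 3.46% in the remaining hippocampus). The corresponding shares were 2.75% in astrocytes, 5.01% in vessels and 2.11% in the remaining cortex.

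**Figure D1:**
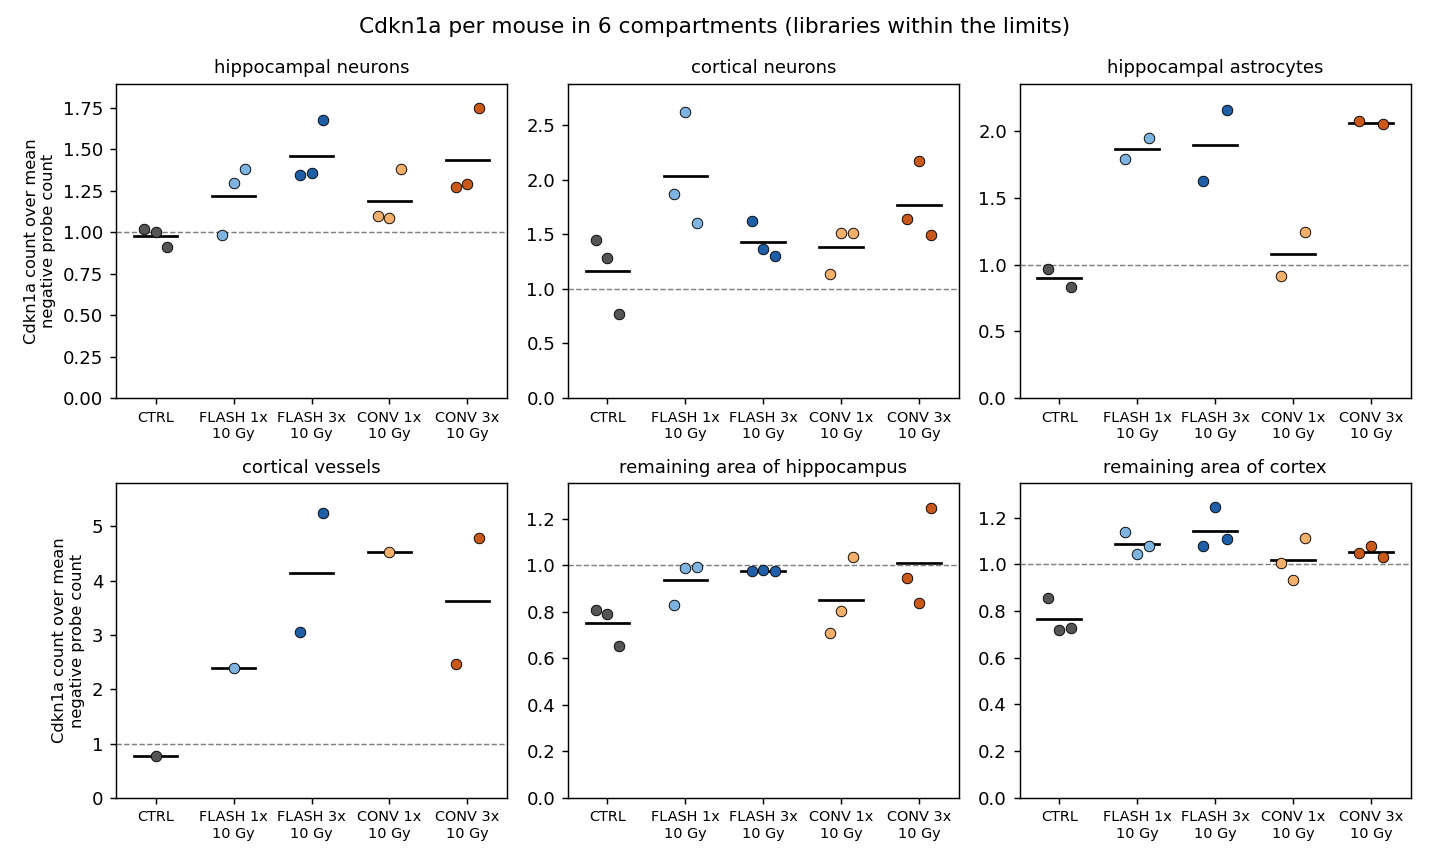
Cdkn1a in each mouse and compartment, as the count over the mean negative probe count (vertical axes, no unit, a separate scale per panel), by group (horizontal axis); points are mice, bars are group means and the dashed line is the background of 1. In the remaining area of the cortex every irradiated mouse (0.933 to 1.24) lay above the CTRL mice (0.72 to 0.854), while in the neurons the groups were closer.

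In hippocampal astrocytes the 2 CTRL mice with libraries within the limits had Cdkn1a ratios of 0.97 (A) and 0.833 (B). The 8 irradiated mice ran from 0.915 through a median of 1.87 to 2.16. By ratio only CONV 1x10Gy A, at 0.915, fell within the CTRL range, and by scaled CPM, the count relative to the size of the library, all 8 irradiated mice lay above both CTRL mice. The mean difference in log2 CPM was 0.91, with an exact 2-sided permutation p of 0.022 over the 45 choices of 2 mice, the smallest that 10 mice allow. Within slide 1 the irradiated mice stood 1.02 above their CTRL mouse and within slide 2 they stood 1.31 above it. Cdkn1a was detected in 11 of 24 irradiated and 0 of 6 CTRL libraries. Leaving out either CTRL mouse ended the call, and so did the fit without slide (1.02, adjusted p = 0.196), so that the adjusted call rests on both CTRL mice and on the slide term. The summed oligodendrocyte markers ran from 417 to 1081 CPM in the irradiated and from 1077 to 1288 CPM in the CTRL mice in these segments, so that the ranges barely overlapped, with 4 of the 6 markers above 2 times the negative probe, and their part in the result was not tested. The summed astrocyte markers overlapped, at 677 to 970 CPM in irradiated and 771 to 915 CPM in CTRL mice.

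The 30 astrocyte libraries outside the limits could be added back to include all 15 mice. With no library left out, the ratios were 0.903, 0.897 and 0.997 in the CTRL mice and 0.906 to 2.16 in the 12 irradiated mice. The single irradiated mouse at the CTRL level was FLASH 3x10Gy C, at 0.906. The log2 fold was 0.95 (edgeR adjusted p = 2.95e-04), and the permutation difference was 0.69 (exact p = 0.0044), with 11 of 12 irradiated mice above every CTRL mouse. The group means were 1.56 (SD 0.19, n = 3) for FLASH 1x10Gy, 1.56 (SD 0.63) for FLASH 3x10Gy, 1.24 (SD 0.0058) for CONV 1x10Gy and 1.75 (SD 0.35) for CONV 3x10Gy, and the differences between them were not tested. The summed oligodendrocyte markers then ran from 526 to 1135 CPM in CTRL and from 415 to 1261 CPM in irradiated mice.

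In cortical vessels the contrast was limited by the number of usable libraries, which left 1 CTRL mouse (ratio 0.761, from a count of 7) and 6 irradiated mice, with ratios of 2.4, 2.46, 3.05, 4.52, 4.78 and 5.24. All 6 irradiated libraries and not the CTRL library detected the gene. The smallest p that 7 mice allow is 0.143, which was the exact p of the difference of 1.74 in log2 CPM. With no library left out, Cdkn1a was the single gene called in vessels (0.00998% of genes), with a log2 fold of 1.72 (SE 0.29, edgeR adjusted p = 2.54e-04). The ratios of the CTRL mice were then 0.95, 1.07 and 0.989, and those of the irradiated mice ran from 1.23 through a median of 2.63 to 5.02, from 34 counts in 6 CTRL libraries and 299 counts in 24 irradiated libraries. No irradiated mouse overlapped the CTRL mice, and the exact p was 0.0022, the smallest that 15 mice allow. The group means were 2.46 (SD 0.257, n = 3) for FLASH 1x10Gy, 3.5 (SD 1.4) for FLASH 3x10Gy, 2.33 (SD 0.986) for CONV 1x10Gy and 3.29 (SD 1.26) for CONV 3x10Gy, against 1.00 (SD 0.061) for CTRL. The summed endothelial markers overlapped between irradiated (541 to 1166 CPM) and CTRL mice (712 to 902 CPM).

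**Figure D2:**
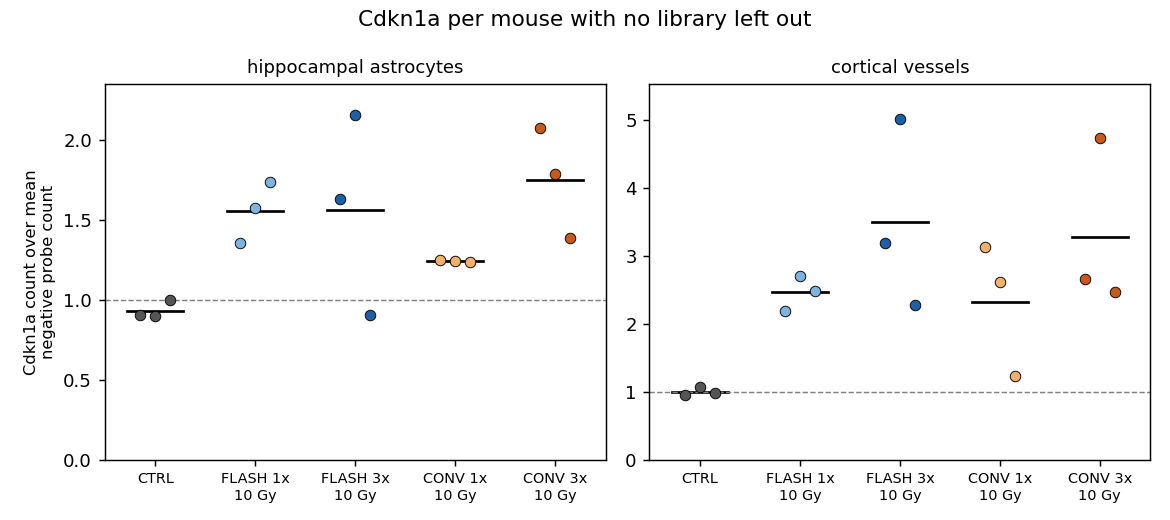
Cdkn1a per mouse with no library left out, in hippocampal astrocytes (left) and cortical vessels (right), as the count over the mean negative probe count (vertical axes, no unit); points are mice, bars are means of 3 mice and the dashed line is the background of 1. In vessels the CTRL mice lay at 0.95 to 1.07 and the lowest irradiated mouse, of CONV 1x10Gy, at 1.23.

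Cdkn1a in the remaining area of the cortex, where neuron and vessel segments were taken and no astrocyte segment, changed by less than in astrocytes but separated the groups fully. The CTRL ratios were 0.854, 0.72 and 0.725 and the irradiated ratios ran from 0.933 through 1.08 to 1.24. These values lie at or just around the background, no library of either condition detected the gene alone, and the result rests on 1083 counts in 6 CTRL and 5852 counts in 27 irradiated libraries. The difference in log2 CPM was 0.44 with all 12 irradiated mice above all CTRL mice (exact p = 0.0022, the smallest possible), and within slides 1, 2 and 4 it was 0.37, 0.59 and 0.43. The median over all genes in this compartment was 0.0063. The background share was 95.3% in CTRL mice and 89.0% to 93.0% in the irradiated groups. With it as a covariate the log2 fold was 0.43 (adjusted p = 0.00717), while upper quartile scaling, scaling to the negative probes (0.52, adjusted p = 0.117), subtraction of the background, or leaving out CTRL mouse B or C ended the call.

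In the other compartments the separation was smaller. In hippocampal neurons the CTRL mice had Cdkn1a ratios of 1.02, 0.998 and 0.909 and the irradiated mice 0.985 to 1.75 with a median of 1.32, and 11 of 12 irradiated mice lay above all CTRL mice by log2 CPM (difference 0.28, exact p = 0.04). Within slides 1 and 2 the difference was 0.52 and 0.41, and within slide 4, which holds the groups of 1 fraction, it was -0.03. In cortical neurons the CTRL mice varied widely, at 1.44, 1.28 and 0.774, and overlapped the irradiated mice at 1.14 to 2.62 (median 1.56, difference 0.35, exact p = 0.064). The CTRL ratios in the remaining area of the hippocampus, 0.806, 0.792 and 0.654, overlapped the irradiated ratios of 0.71 to 1.25 (difference 0.28, exact p = 0.062).

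Among the hippocampal neuron regions, fitted 1 at a time, the DG gave a Cdkn1a log2 fold of 0.58 (SE 0.20, p = 0.00491 before and 0.61 after adjustment). The DG neuron ratios averaged 0.995 in the 3 CTRL mice (0.73 to 1.35) and 1.70 in the 12 irradiated mice (1.23 to 2.55), so that the lowest irradiated value lay within the CTRL range. The folds in CA3 (0.23, SE 0.21), CA1 (0.16, SE 0.27) and SO (0.15, SE 0.32) were smaller than 2 times their errors. No gene was called in CA1, CA3 or DG (0%) and 6 in SO (0.0599%), no member among them. The differences between these folds were not tested.

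Ccng1, the other arrest gene, was detected in too few libraries to enter the tests across genes, but its values had the same direction. In the remaining area of the cortex its ratios were 0.76, 0.575 and 0.597 in the CTRL mice and 0.645 to 0.979 in the irradiated mice, with 10 of 12 above all CTRL mice (log2 difference 0.35, exact p = 0.011). In hippocampal astrocytes the 2 CTRL mice had 0.565 and 0.721 and the 8 irradiated mice 0.682 to 1.28 (log2 difference 0.66, exact p = 0.044). CONV 1x10Gy B, at 0.682, was the irradiated mouse within the CTRL range. In an edgeR fit with no filter on genes the astrocyte fold was 0.79 (SE 0.21) with an adjusted p of 0.847. All of these ratios lie near or under the background.

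Mdm2, which closes the feedback loop on p53, passed the test in no compartment. In hippocampal neurons its ratio was 1.98 to 2.52 in CTRL and 1.99 to 3.54 in irradiated mice, with a log2 fold of 0.0032 (SE 0.091). In the remaining areas the folds were -0.058 (SE 0.071) in the hippocampus and -0.087 (SE 0.072) in the cortex, in cortical neurons 0.14 (SE 0.13) and in vessels -0.25 (SE 0.56). In hippocampal astrocytes the CTRL mice had 1.34 and 1.55 and the irradiated mice 1.59 to 2.05, all above both CTRL mice, with a log2 fold of 0.35 (SE 0.17), an adjusted p of 1 and an exact p of 0.022. With no library left out the Mdm2 difference there was 0.15, with 4 of 12 irradiated mice above all CTRL mice (exact p = 0.30).

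Of the apoptosis genes, Bax and Bbc3 stood higher in the irradiated astrocyte segments without passing the adjusted test. Bax had ratios of 1.02 and 0.788 in the CTRL mice and 0.97 to 1.74 in the irradiated mice. Its log2 fold was 0.79 (SE 0.19, p = 1.88e-04, adjusted p = 0.697), and by log2 CPM all 8 irradiated mice were above both CTRL mice (0.63, exact p = 0.022). With no library left out the Bax difference in astrocytes was 0.54, with 12 of 12 irradiated mice above all CTRL mice (exact p = 0.0022). Bbc3 had 0.834 and 0.721 in the CTRL mice and 0.879 to 1.34 in the irradiated mice, with a log2 fold of 0.71 (SE 0.19, adjusted p = 1, exact p = 0.022). In both neuron compartments, where these genes were best detected, the log2 folds were 0.14 (SE 0.099) and 0.024 (SE 0.13) for Bax and 0.080 (SE 0.12) and 0.031 (SE 0.13) for Bbc3. The untested Trp53inp1 differed by 0.57 in astrocytes (exact p = 0.067), Eda2r by -0.49 in cortical neurons (exact p = 0.079), and Aen by nothing with an exact p under 0.08 in any compartment.

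Neither Phlda3 nor Zmat3 passed the adjusted test in any compartment. Phlda3, the most widely detected of the 10, had folds between -0.11 and 0.071 in every compartment other than vessels, with errors of 0.081 to 0.19. In vessels its fold was -1.45 (SE 0.57, adjusted p = 0.909), against the single CTRL mouse at a ratio of 3.59, and with no library left out it was -0.13 (SE 0.25). Zmat3 had its largest fold with a usable number of mice in hippocampal astrocytes, at 0.33 (SE 0.22), where by log2 CPM all 8 irradiated mice lay above both CTRL mice (0.36, exact p = 0.044). In cortical neurons its fold was 0.28 (SE 0.16, adjusted p = 0.891), with 5 of 12 irradiated mice above all CTRL mice (0.36, exact p = 0.048).

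**Figure D3:**
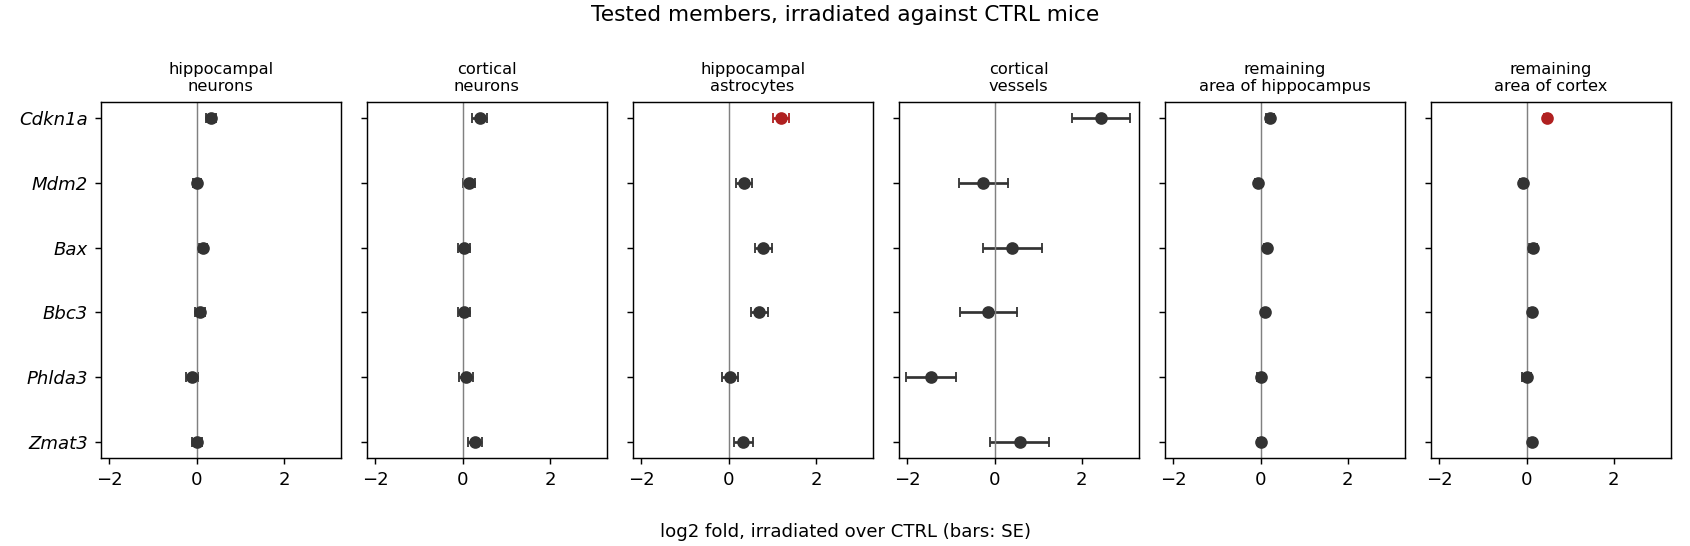
Log2 fold change of irradiated over CTRL mice (horizontal axes, no unit) of the 6 tested genes in the 6 compartments, from edgeR fits with slide as a term; points are estimates, bars are 1 SE and red marks an adjusted p under 0.05. Cdkn1a is right of 0 in every panel and is the single gene marked, at 1.20 in hippocampal astrocytes and 0.47 in the remaining area of the cortex. Irradiated mice on slides without a CTRL mouse did not enter these folds.

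The number of members with an exact permutation p under 0.05 and a higher level in irradiated mice can be read against the same share over all tested genes. In hippocampal astrocytes 5 of the 6 tested members reached it (all but Phlda3), where 1.77% of all genes did. With no library left out, which brings in all 15 mice, 3 of 6 did (Cdkn1a, Bax and Bbc3, the last with exact p = 0.033), while Mdm2 (exact p = 0.30) and Zmat3 (exact p = 0.073) did not. In hippocampal neurons it was 1 of 6 (Cdkn1a) against 1.81%, in cortical neurons 1 of 6 (Zmat3) against 4.4%, in the remaining cortex 1 of 6 (Cdkn1a) against 1.99%, and in the remaining hippocampus 0 of 6 against 2.62%. Averaged over the compartments of a mouse it was 3 of 6 (Cdkn1a, Bax and Zmat3) against 2.44%, and over the 4 compartments that all mice had Cdkn1a alone reached it (Bax 0.10, exact p = 0.099, and Zmat3 0.14, exact p = 0.086). The median log2 fold of the 6 genes in edgeR was 0.53 in astrocytes, against 0.0012 over all genes, and between 0.044 and 0.13 in the other compartments. These exact p values were not adjusted, and genes of 1 library are not independent.

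As an average over the compartments that each mouse had, Cdkn1a was again the single gene called (limma-trend log2 fold 0.67, SE 0.086, adjusted p = 0.00261; 0.00998% of genes). Bax (0.27, SE 0.077, unadjusted p = 0.00269) and Zmat3 (0.23, SE 0.083, unadjusted p = 0.0138) had adjusted p of 0.991. By exact permutation Cdkn1a differed by 0.53 and Ccng1 by 0.32, each with 12 of 12 irradiated mice above all CTRL mice (exact p = 0.0022). CTRL C had no astrocyte or vessel library within the limits, so this average mixes compartments unequally. Over the 4 compartments that all 15 mice had, the Cdkn1a difference was 0.34 with the same separation and exact p (0.0022), and its adjusted p in limma was 0.218. Ccng1 then differed by 0.23, with 9 of 12 irradiated mice above all CTRL mice (exact p = 0.0088).

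The effect of irradiation was larger in astrocyte than in neuron segments of the hippocampus for several of the genes. Over the 10 mice with both, the difference of the 2 log2 effects was 0.56 for Cdkn1a (exact p = 0.044), 0.60 for Ccng1 (exact p = 0.044), 0.56 for Bax (exact p = 0.022), 0.56 for Bbc3 (exact p = 0.022), 0.32 for Mdm2 (exact p = 0.022) and 0.39 for Zmat3 (exact p = 0.044). Only 2 of these mice were CTRL, and 0.022 is the smallest p they allow. In all, 50 such differences were computed, and no p was adjusted. The corresponding share over all genes was not computed. With no library left out, the log2 differences of irradiated from CTRL mice in astrocytes and in neurons were 0.15 and 0.048 for Mdm2. For Cdkn1a they were 0.69 and 0.27. For Cdkn1a the remaining cortex and cortical neurons differed by 0.089 (exact p = 0.657).

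Other genes of the p53 pathway did not pass in any of the 6 compartments. Of 51 further listed genes on the panel, which cover the regulators of p53, damage kinases and other targets, 26 were tested and 0 were called. Those with an unadjusted p under 0.05 in edgeR were Ei24, an apoptosis target, in cortical neurons (0.30, SE 0.15), the apoptosis gene Pmaip1 there (-0.35, SE 0.15), Trp53bp1, which binds damaged chromatin, in astrocytes (-0.34, SE 0.17), the ubiquitin ligase Cop1 in vessels (2.08, SE 0.99), Perp, a membrane protein of apoptosis, in the remaining hippocampus (-0.17, SE 0.062) and the stress gene Ddit4 in the remaining cortex (0.18, SE 0.071). Their adjusted p ran from 0.89 to 1. In astrocytes 20 of the 26 had a fold above 0 with a median of 0.099, and in the remaining compartments 9 to 15 of 26 did. By the difference of mean log2 CPM, without slide, 49.1% of all tested genes were higher in the irradiated astrocyte segments. That share was not computed from the edgeR folds, and the count of 20 was not tested against it.

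Each irradiated group was also set against the same 3 CTRL mice, in 1 fit of all 5 groups with slide as a term. In hippocampal neurons the Cdkn1a ratio averaged 0.975 (SD 0.058, n = 3) in CTRL, 1.22 (SD 0.21) in FLASH 1x10Gy, 1.46 (SD 0.19) in FLASH 3x10Gy, 1.19 (SD 0.17) in CONV 1x10Gy and 1.44 (SD 0.27) in CONV 3x10Gy. The groups of 3 fractions, at 1.34 to 1.68 and 1.27 to 1.75, and CONV 1x10Gy, at 1.08 to 1.38, lay wholly above CTRL, and FLASH 1x10Gy overlapped it at 0.985. The log2 folds were 0.42 (SE 0.13, p = 0.00285) for FLASH 3x10Gy and 0.49 (SE 0.14, p = 0.00151) for CONV 3x10Gy before adjustment, with adjusted p of 0.979 and 0.998. For the groups of 1 fraction they were -0.093 (SE 0.20) and 0.046 (SE 0.19), although their mean ratios stood above that of CTRL. Slide 4 was the only slide to hold CTRL with groups of 1 fraction, so these folds lean on it and on the slide terms. No member was called in any of the 4 comparisons, in which 11.5% (FLASH 1x10Gy), 0.00998% (FLASH 3x10Gy) and 0% (both CONV groups) of all genes were. The 1150 genes called for FLASH 1x10Gy dropped to 0 without slide in the fit, and DESeq2 called 504.

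In cortical neurons the order of the groups was another. The Cdkn1a ratio averaged 1.17 (SD 0.35, n = 3) in CTRL, 2.03 (SD 0.53) in FLASH 1x10Gy, 1.43 (SD 0.17) in FLASH 3x10Gy, 1.38 (SD 0.21) in CONV 1x10Gy and 1.77 (SD 0.36) in CONV 3x10Gy. The FLASH 1x10Gy mice, at 1.60 to 2.62, and the CONV 3x10Gy mice, at 1.49 to 2.17, lay above all CTRL mice, and the other groups overlapped them. The log2 folds were 0.69 (SE 0.29, adjusted p = 0.264) for FLASH 1x10Gy and 0.45 (SE 0.20, adjusted p = 0.999) for CONV 3x10Gy, and no member was called. In the remaining area of the cortex, added after the values had been seen, the 4 folds were close, at 0.51 (SE 0.11) for FLASH 1x10Gy, 0.53 (SE 0.077) for FLASH 3x10Gy, 0.41 (SE 0.097) for CONV 1x10Gy and 0.41 (SE 0.078) for CONV 3x10Gy. FLASH exceeded CONV there by 0.11 (SE 0.052, edgeR adjusted p = 0.462). Cdkn1a was the single gene called for FLASH 3x10Gy there (0.00998% of genes, edgeR adjusted p = 0.026). In the remaining area of the hippocampus 8 genes (0.0798%) were called for FLASH 1x10Gy, no member among them.

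In the neurons of both regions Cdkn1a did not pass the test between FLASH and CONV, compared over both doses: the log2 difference was -0.10 (SE 0.098, edgeR adjusted p = 0.46) in hippocampal and 0.038 (SE 0.14, adjusted p = 0.987) in cortical neurons, and neither shows that the modes act alike. It was 0.17 (SE 0.064, p = 0.0156 before and 0.271 after adjustment) in the remaining hippocampus. Phlda3 was the member called, lower in FLASH than in CONV hippocampal neurons by a log2 fold of -0.36 (SE 0.093, edgeR adjusted p = 0.00707), in a comparison that called 23.3% of all genes. Its ratios were 2.13, 2.45 and 1.79 in FLASH 1x10Gy, 1.80, 2.04 and 2.13 in FLASH 3x10Gy, 2.59, 2.43 and 1.99 in CONV 1x10Gy and 2.04, 2.31 and 1.90 in CONV 3x10Gy (mice A, B and C), so that the modes overlapped. Without slide in the fit the difference was -0.27 (adjusted p = 0.51) and no gene was called, and with the background share as a covariate it was -0.08 (adjusted p = 0.93). Of the 26 other pathway genes 7 were called in this comparison: Ei24 was higher in FLASH, and Polk, Rprm, Rrm2b, Sco2, Sesn2 and Shisa5 were lower, and none was called without slide. In cortical neurons no gene was called (0%), and in the remaining hippocampus 25 (0.25%), no member among them.

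By scaled CPM the Phlda3 level in the neuron segments rose with the background share across mice. The scaled CPM of any gene with a constant ratio to the negative probes rises with that share largely by construction. The relation was computed for 4 genes and not over all genes, so it does not set Phlda3 apart from other genes. Over the 15 mice Pearson's r was 0.88 (permutation p = 4e-05) and Spearman's rho 0.85 in hippocampal neurons, and r was 0.72 (permutation p = 0.0014) and rho 0.71 (permutation p = 0.004) in cortical neurons. The adjusted p over the 16 relations computed, of 4 genes in 4 compartments, were 6.4e-04 and 0.0112 for r. Without the 2 mice farthest from the median background r was 0.86 and 0.63, and within slides it was 0.81 and 0.83. In the remaining areas the Phlda3 r was 0.44 (permutation p = 0.103) in the hippocampus and 0.41 (permutation p = 0.126) in the cortex. Bax fell with the background share in the remaining cortex, with r of -0.62 (permutation p = 0.0143, adjusted p = 0.0763), rho of -0.70 (adjusted p = 0.0276) and r of -0.46 without the 2 farthest mice. Cdkn1a had no such relation with an unadjusted p under 0.05 in any of the 4 compartments (r from -0.49 in the remaining cortex to 0.12 in hippocampal neurons). Within slides the Cdkn1a r was 0.51 in hippocampal neurons, -0.28 in cortical neurons, 0.073 in the remaining hippocampus and -0.59 in the remaining cortex. Without the 2 farthest mice it was 0.097 in the remaining cortex. The background share averaged 60.4% in CTRL, 50.9% in FLASH 1x10Gy, 53% in FLASH 3x10Gy, 56.1% in CONV 1x10Gy and 57.9% in CONV 3x10Gy hippocampal neurons, so it was lower in both FLASH groups.

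**Figure D4:**
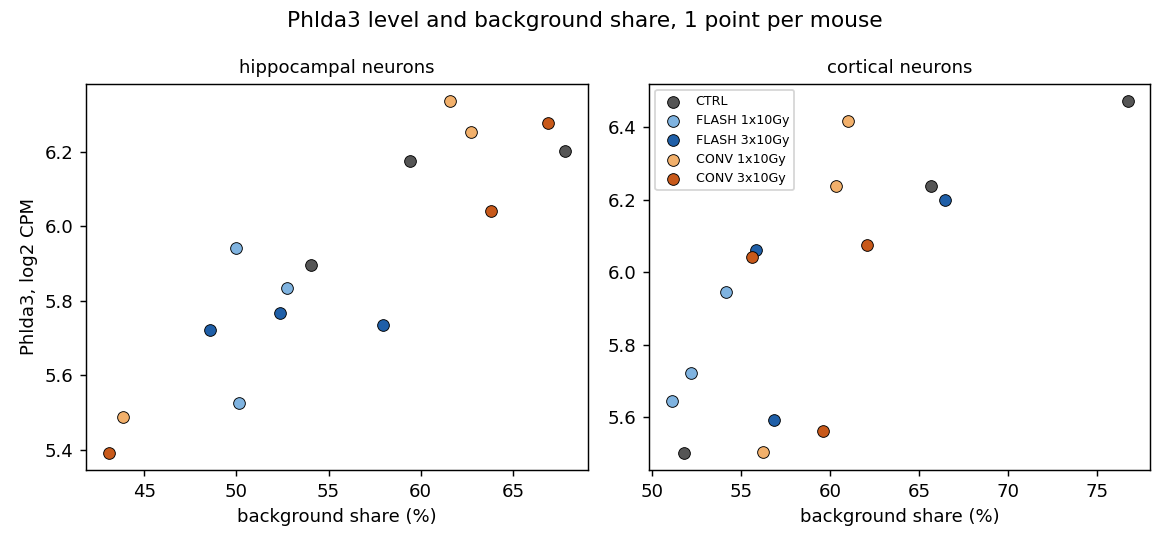
Phlda3 as log2 CPM (vertical axes) against background share in percent (horizontal axes), 1 point per mouse, coloured by group, in hippocampal neurons (left) and cortical neurons (right). Mice with a higher background share had a higher Phlda3 value, with Pearson's r of 0.88 and 0.72 over 15 mice. For a gene with a constant ratio to the negative probes the CPM scale largely builds in such a rise.

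Between 3 and 1 fractions no gene was called in the neurons of either region (0%), though 3 fractions and 1 fraction share only slide 3. The Cdkn1a difference was 0.48 (SE 0.19, p = 0.0156 before and 0.344 after adjustment in edgeR) in hippocampal neurons, higher with 3 fractions, and -0.20 (SE 0.28) in cortical neurons.

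Across the 15 classes of region and segment, all mice pooled, Cdkn1a was highest in cortical vessels (mean ratio 3.32, SD 1.61, 7 mice), followed by astrocytes of the DG (1.76, SD 0.57), CA1 (1.66, SD 0.57) and CA3 (1.60, SD 0.64) and by neurons of the DG (1.56, SD 0.48) and cortex (1.56, SD 0.43). The other classes lay between 0.82 and 1.12. Neighbours among the 5 classes named after the vessels differed by less than their SD. This order pools conditions, and 6 of the 7 mice of the vessel class were irradiated. In CTRL mice alone the class means ran from 0.71 to 1.17, near the background of 1, with cortical neurons highest (1.17) and the vessel class at 0.761 in its 1 CTRL mouse. The 3 genes whose levels over these 15 classes were most like Cdkn1a among 10019 were Ly6c1 (Pearson's r 0.96), Igfbp7 (0.95) and Epas1 (0.95), given as a description over classes that share mice and slides.

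**Figure D5:**
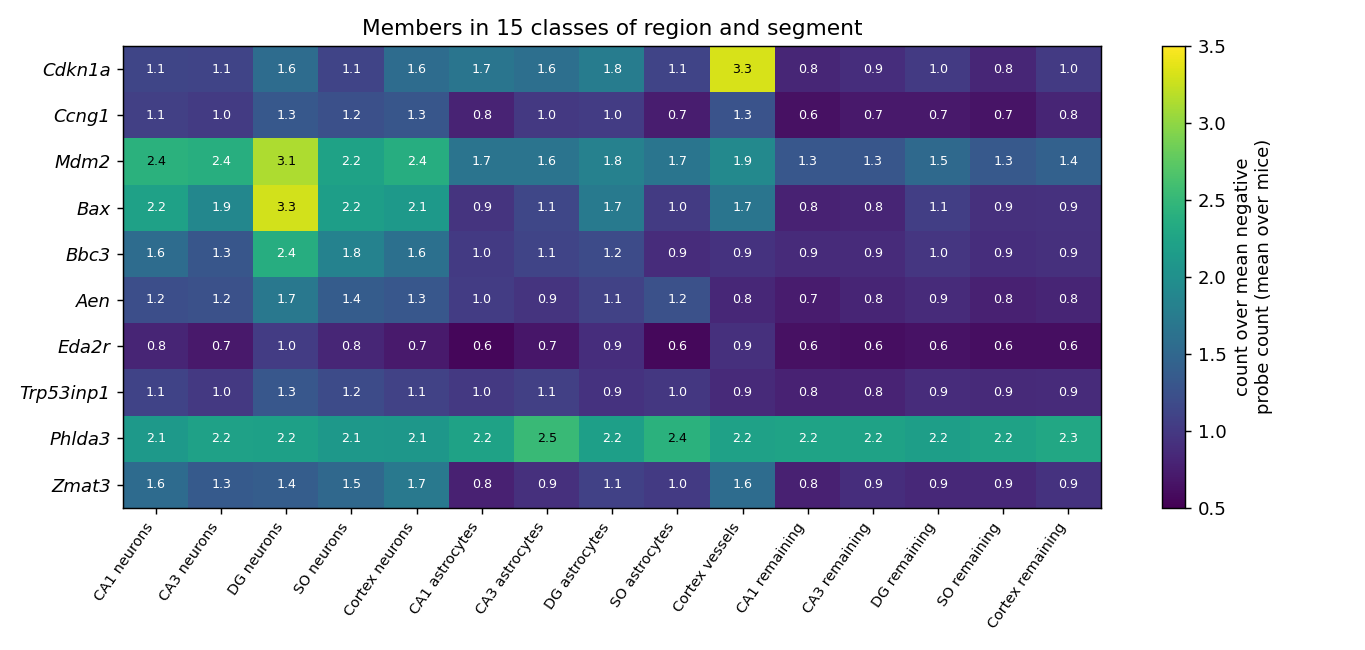
Mean count over mean negative probe count (colour and printed value, no unit) of the 10 genes (rows, grouped by role) in the 15 classes of region and segment (columns), over all mice with libraries within the limits. With CTRL and irradiated mice pooled, Cdkn1a is highest in cortical vessels (3.32, 6 of 7 mice irradiated, with the CTRL mouse at 0.761), Bax and Mdm2 in DG neurons (3.3 and 3.13), and Phlda3 stays between 2.09 and 2.53.

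The apoptosis genes and Mdm2 had another distribution. Bax (3.3), Mdm2 (3.13), Bbc3 (2.37) and Aen (1.70) were highest in DG neurons, Zmat3 in cortical neurons (1.72), and Phlda3 ran from 2.09 to 2.53 by ratio, while its log2 CPM differed between segments. Over the 5 neuron regions, compared within mice, 5 of the 6 tested members differed (edgeR F test, all but Mdm2), in a comparison that called 60.3% of all genes. The DG exceeded the cortex by 0.29 for Bax and 0.24 for Bbc3 on the log2 scale and was below it by -0.36 for Cdkn1a, -0.24 for Phlda3 and -0.57 for Zmat3. By ratio to the negative probes Cdkn1a was level between DG and cortex neurons (1.56 each) and Phlda3 was higher in the DG (2.20 against 2.09), so that for both genes the direction depends on the scaling. Between astrocyte and neuron segments of the hippocampus 73.2% of genes were called, among them Cdkn1a (0.94, SE 0.079) and Phlda3 (0.67, SE 0.065), each higher in the astrocyte segment of 10 of 10 mice, and Bax (-0.21, SE 0.075), lower there. Of these 10 mice 8 were irradiated. In CTRL mice the Cdkn1a ratios averaged 0.80 to 1.10 in the astrocyte and 0.96 to 1.02 in the neuron classes. By ratio Phlda3 ran from 2.20 to 2.53 in the astrocyte and from 2.10 to 2.21 in the neuron classes of the hippocampus, so that its difference depends on the scaling. Between vessel and neuron segments of the cortex 20.1% were called, among them Cdkn1a (1.09, SE 0.19), higher in the vessel segment of 6 of 7 mice, and Phlda3 (0.52, SE 0.17), higher there in 4 of 7 mice. By ratio Phlda3 averaged 2.21 in the vessel and 2.09 in the neuron class of the cortex. The exception for Cdkn1a in the vessels was CTRL mouse B, at 5.43 in its vessel and 5.44 in its neuron segments on the log2 CPM scale.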

How the data were processed

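The authors deposited raw counts per probe for each of 285 libraries, made from the reads by the GeoMx NGS pipeline 2.0.0 per the file headers, with reads collapsed to molecules by the pipeline. The submitters' processing notes also name R 4.4.0 and edgeR. Here libraries were left out below 1000 raw reads, 80% trimmed or stitched, 75% aligned, 50% saturation or 5% of genes over the limit of quantification, and a gene was tested if over that limit in at least 5% of the 225 libraries left. Negative probes held 0.899% of counts, and a probe with no gene in the list, left out, 0.00869%. Counts were summed per mouse and compartment and fitted with edgeR 4.0.16 (robust quasi-likelihood, TMM scaling, slide as a term, 2-sided) in R 4.3.3, with Benjamini-Hochberg adjustment over 10020 genes and a threshold of 0.05. The average over compartments used limma 3.58.1 on log2 CPM (prior count 2), and the same values gave exact 2-sided permutation tests over mice, with no slide term. In fits of irradiated against CTRL mice with slide as a term, mice on slides without a CTRL mouse did not enter the fold. Segments of the same mice were compared with the mouse as a block. Alternatives covered slide, scaling, background, filters, DESeq2 1.42.0, a linear mixed model on single libraries (lme4 1.1.37) and leaving out each mouse. All 10 members are named. Other pathway genes are named if they passed the adjusted test, otherwise up to 4 per comparison with unadjusted p under 0.05. The members and lists were chosen with earlier results of these data known.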

Additional observations from a re-analysis of the deposited data

Results flagged for a closer look

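In 8 cases the effect of irradiation on a gene differed between compartments of the same mice, by an exact permutation test of the difference over mice. Between hippocampal astrocytes and hippocampal neurons the log2 effects differed by 0.564 for Cdkn1a (exact p = 0.0444), 0.596 for Ccng1 (exact p = 0.0444), 0.316 for Mdm2 (exact p = 0.0222), 0.560 for Bax (exact p = 0.0222), 0.563 for Bbc3 (exact p = 0.0222) and 0.395 for Zmat3 (exact p = 0.0444), each larger in astrocytes and each resting on 10 mice of which 2 were CTRL. Mdm2 differed by -0.228 between the remaining area of the cortex and cortical neurons (exact p = 0.0286). Eda2r, detected in 0 of the 225 libraries within the limits, differed by -0.726 between cortical and hippocampal neurons (exact p = 0.0088). The p values of the 50 differences were not adjusted, and the corresponding share over all genes was not computed.

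A signal was also present in vessel libraries that the main fits did not use. These libraries are part of the vessel comparison with no library left out. They hold 172 of its 299 irradiated and 27 of its 34 CTRL counts of Cdkn1a, so that the values below are not independent of it. In the vessel libraries outside the limits on signal the Cdkn1a ratio averaged 2.92 (SD 1.07) in 12 irradiated mice, against 1.16 (SD 0.341) in 3 CTRL mice, from 172 counts in 18 libraries and 27 counts in 5 libraries. By log2 CPM all 12 irradiated mice lay above all CTRL mice (difference 1.05, exact p = 0.0022, the smallest possible), and by ratio CTRL mouse B, at 1.56, lay above CONV 1x10Gy mouse C, at 1.23. The background share of these libraries was 81.3% in CTRL and 79.8% in irradiated mice, and its part in the result was not tested.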

How the results depend on the processing

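The direction of Cdkn1a in irradiated against CTRL mice held under every alternative run in each of the 6 compartments (17 to 27 alternatives each). The number of members called did change. In hippocampal astrocytes it was 1 in the reported fit, 0 without slide, with slide as a random block, with the strict gene filter (which leaves 2225 genes and not Cdkn1a) or with scaling to the negative probes, 2 with the background share as a covariate, and 0 to 1 leaving out a mouse (0 without CTRL A or B). In cortical vessels it was 0, and 1 with no library left out. In the remaining area of the cortex it was 1, and 0 under upper quartile scaling, background subtraction, the strict filter or negative probe scaling, and 0 to 1 leaving out a mouse (0 without CTRL B or C). For the mean over compartments it was 1, and 0 without slide or over the 4 compartments of all mice, and 0 to 1 leaving out a mouse (0 without CTRL A or B). For FLASH against CONV in hippocampal neurons it was 1, and 0 without slide or with the background share as a covariate, and 0 to 1 leaving out a mouse (0 without CONV 3x10Gy A or CONV 1x10Gy B). For FLASH 1x10Gy against CTRL there it was 0, and 1 without CONV 3x10Gy C. For vessel against neuron segments it was 2, and 1 to 2 leaving out a mouse (1 without FLASH 3x10Gy A, CONV 3x10Gy A, CTRL B or FLASH 1x10Gy B). Phlda3 for FLASH 1x10Gy against CTRL turned with the background share as a covariate, to 0.14 in cortical and 0.0037 in hippocampal neurons. The cause of these changes was not tested.

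The number of genes called for FLASH against CONV in hippocampal neurons was 2338 in the reported fit, 0 without slide, 2 with the background share as a covariate, 981 with DESeq2 and 133 to 3180 leaving out a mouse, and for FLASH 1x10Gy against CTRL 1150, 0, 0, 504 and 0 to 1960. In cortical neurons irradiated against CTRL gave 0 genes, and up to 634 leaving out a mouse. Of 785 alternative values of single members, 700 held direction and side of the threshold, 78 lost it, 3 gained it, 2 moved and 2 turned. In the mixed model on single libraries, which are not independent within a mouse, the Cdkn1a log2 fold was 1.01 in astrocytes and 0.44 in the remaining cortex. The fits of 5 groups in astrocytes and vessels, and of vessels without CTRL B, could not be fitted. The letters of the mice name separate animals in each group, so mice were not paired by letter, and slide was fitted as a term instead. Differences within the slides that held a CTRL mouse were also computed. The exact permutation tests exchanged mice across slides. Segments and regions of the same mice were compared within mice. The negative probe scaling, the 4 compartments of all mice, the group comparisons in the remaining areas and the vessel libraries outside the limits were chosen after seeing the data. Most members lie near the background, so at this depth a small change would not be detectable in single libraries.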
